A study of Mus musculus with 70 samples.

Results

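Regulatory T cells (Tregs) that carry or lack ST2, the receptor for the cytokine IL-33, were sorted from several tissues of mice, and the transcripts that mark other immune cells were followed in these libraries. The set held 34 genes of the 53465 features in the count table, taken by symbol from lists of cell type markers. The lists were chosen with earlier results of these data known. It comprised 14 macrophage genes (Spi1, Apoe, Adgre1, Cd68, Csf1r, Tyrobp, C1qa, C1qb, C1qc, Ctss, Mpeg1, Cd14, Fcer1g and Lyz2), 5 genes of antigen presentation on MHC class II (Cd74, H2-Aa, H2-Ab1, H2-Eb1 and Ciita), 6 dendritic cell genes (Itgax, Zbtb46, Flt3, Xcr1, Clec9a and Cd209a) and 6 B cell genes (Cd79a, Cd79b, Ms4a1, Igkc, Ighm and Jchain). The mast cell gene Cpa3 and the CD8 T cell genes Cd8a and Cd8b1 completed it. The question was in which tissues and Treg populations these transcripts were present, and at what level.

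The animals were 5 male Foxp3 YFP-cre mice with the allele Foxp3tm4(YFP/icre)Ayr, aged 16.6, 17.1, 17.4, 18.1 and 18.6 weeks for mice 1 to 5, in which a fluorescent reporter driven from the Foxp3 locus marks Tregs. ST2+ CD44hi and ST2- CD44hi Tregs came from the colon, the back skin, abdominal visceral adipose tissue (VAT), lungs, spleen and blood, and ST2- CD44lo CD62L+ Tregs came from spleen and lungs only, so that the 14 groups held 5 libraries each before filtering, 1 per mouse. No group was treated, and all carried the same reporter allele. The sort kept live single cells positive for CD45.2, CD4 and YFP and, among other antigens, negative for CD8 and CD11b, which exclude CD8 T cells and most macrophages. CD4 T cells were enriched with magnetic beads before the sort in spleen and lungs and not in the other tissues, and VAT, colon, lungs and skin were digested with collagenase, so tissue and preparation cannot be told apart in any comparison between tissues. In most libraries 220 cells were sorted, with 55 to 220 in blood ST2+, 166 to 220 in blood ST2- and 93 to 220 in VAT ST2- Tregs.

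Of 70 libraries, 67 held more than 1000000 counts and were used, with totals of 1304560 to 2759926 and a median of 2039002. The other 3, ST2+ Tregs of blood mouse 1 and of colon mice 2 and 5, held 488666, 3582 and 62333 counts, which left n = 4 for blood ST2+, n = 3 for colon ST2+ and n = 5 for each other group. Treg and sort antigen transcripts were present in every library used, with Ptprc (CD45) at 1478.5 to 2667.3, Cd4 at 226.3 to 648.0 and Foxp3 at 105.1 to 413.7 counts per 1000000 (CPM). Il1rl1, which encodes ST2, was at 230.0 to 1614.1 CPM in ST2+ and 0 to 194.6 CPM in ST2- libraries. Of the antigens gated out, Itgam (CD11b) reached at most 6.28 CPM, in 14 libraries with a count. A set of 4 libraries held far more of some members than the other libraries of their group, namely colon ST2- mouse 2 (class II), VAT ST2+ mouse 5 and VAT ST2- mouse 3 (immunoglobulin) and skin ST2+ mouse 4 (mast cell), and values without them are given beside the results in the colon, VAT and skin whose call changed. The set is not complete, since VAT ST2+ mouse 2 stood out for the summed dendritic cell genes (327.8 CPM) and was kept in those fits.

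Tregs are CD4 T cells that read peptides presented by other cells and are not themselves among the specialised presenting cells. Macrophages engulf particles and presenting cells load peptides onto class II molecules with the help of the invariant chain Cd74. Plasma cells of the gut lining secrete immunoglobulin A joined by the J chain, which Jchain encodes. Some of these genes are not exclusive to the cell type they mark, and mouse T cells can transcribe Ctss and unrearranged Ighm. In bulk RNA, more cells of a type and more of its RNA per cell cannot be told apart, so a level below is the amount of a transcript in a pool of sorted cells.

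The members fell into a few that were counted everywhere and many that were counted in few libraries. Cd74, Ctss, Ighm, Igkc and Cd8b1 had counts in all 67 libraries and Cd79b in 64, whereas Cd8a was counted in 2, Ms4a1 in 8 and Csf1r, Itgax and Cd209a in 10 each. Per kilobase of exon, the only scale on which levels of different genes are compared here, the medians over all 67 libraries were 295.6 CPM for Ighm, 230.3 for Ctss, 117.6 for Cd74, 66.2 for Igkc, 31.3 for Cd79b and 22.5 for Cd8b1. Those of Lyz2, H2-Ab1, H2-Eb1 and Apoe were 9.09, 8.30, 5.81 and 3.59 CPM per kilobase, and each of the other members had a median under 3.59. A library held a median of 5 of the 14 macrophage genes at 1 CPM or more. All 14 were at that level in the 3 colon ST2+ libraries and in colon ST2- mouse 2, and 8 libraries, all of colon or VAT, held at least 12, while 41 held 5 or fewer.

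**Figure D1:**
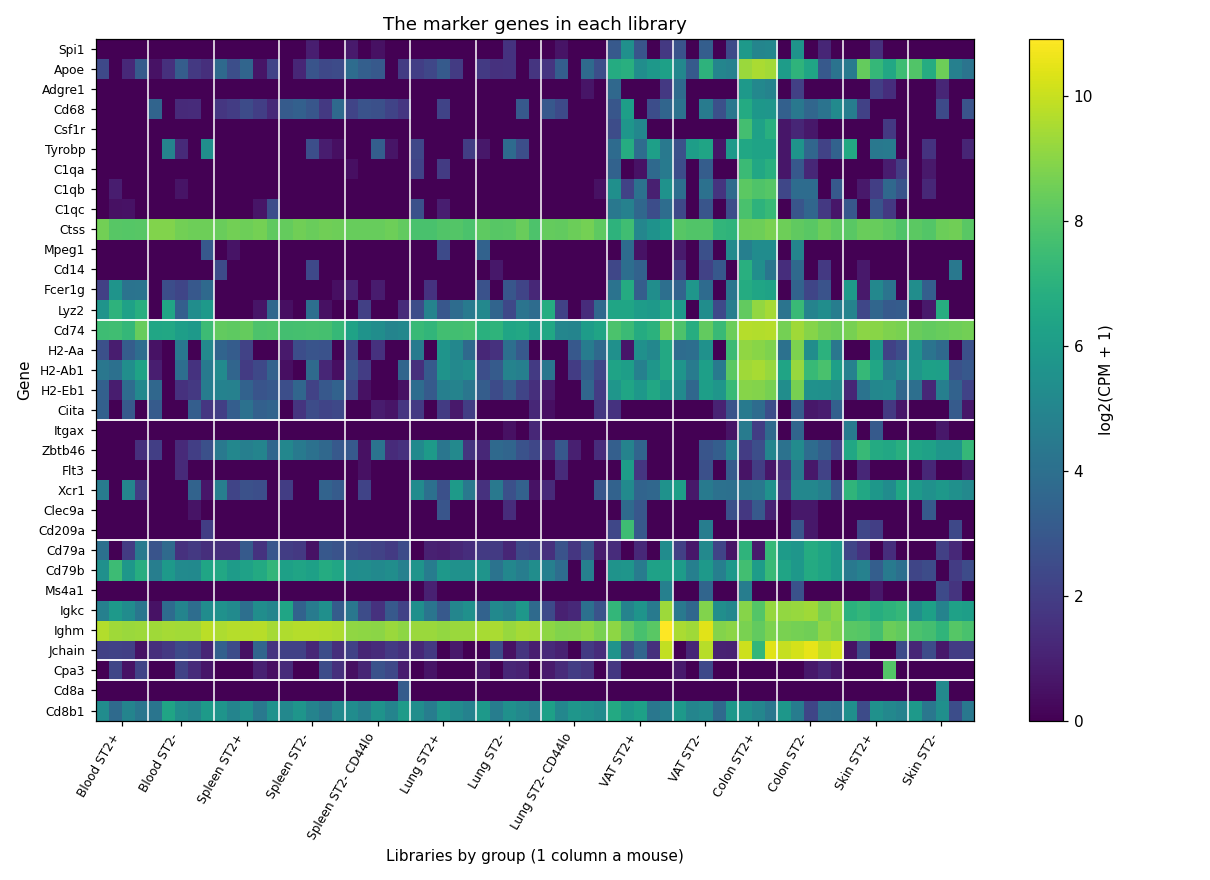
Level of each of the 34 marker genes (vertical axis, grouped by list) in each of the 67 libraries (horizontal axis, grouped by tissue and population), coloured by log2(CPM + 1), with white lines between groups and lists. The macrophage and class II rows fill in the 3 colon ST2+ libraries, whose 14 macrophage genes were all at 1 CPM or more, while Ctss, Cd74, Ighm, Igkc and Cd8b1 are present across all libraries.

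Macrophage transcripts were most abundant in the ST2+ Tregs of the colon. Apoe, a lipid carrier made in quantity by tissue macrophages, was at 607.9, 738.7 and 666.5 CPM in the colon ST2+ libraries of mice 1, 3 and 4, against 64.2, 137.3, 84.3, 7.20 and 16.9 CPM in the ST2- libraries of mice 1 to 5. Every ST2+ library was above every ST2- library. Lyz2, the lysozyme of myeloid cells, was at 313.5, 559.6 and 691.7 CPM in ST2+ and at 17.6, 167.9, 28.5, 40.2 and 23.6 CPM in ST2- libraries. Csf1r, the receptor for the growth factor that macrophages need to survive, was at 200.9, 73.7 and 118.1 CPM in ST2+ and at 0.568, 1.28, 0.649, 0 and 0 CPM in ST2- libraries. Again the groups did not overlap, and for Csf1r the ST2- libraries lay close to no count at all.

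The genes of C1q, the complement protein that macrophages secrete, lie next to each other on the minus strand of chromosome 4 (GRCm38 annotation, C1qb at chr4:136880129-136886187, C1qc at chr4:136889804-136893065 and C1qa at chr4:136895917-136898803). C1qb was at 286.7, 238.9 and 263.6 CPM in colon ST2+ libraries, and at 3.98, 13.4, 13.6, 0 and 7.25 CPM in ST2- libraries. C1qa was at 172.6, 92.9 and 118.6 CPM against 0.568, 7.02, 1.30, 0 and 0 CPM, and C1qc at 220.0, 132.0 and 162.8 CPM against 0, 6.38, 11, 2.54 and 0.604 CPM. All 3 subunit genes were thus separated between the populations, and in the ST2+ libraries they kept a narrow ratio per kilobase, with C1qb at 48.5% to 58.2%, C1qa at 23.7% to 30.5% and C1qc at 18.1% to 21.0% of their sum. In spleen and lungs the C1q genes were near 0, with a sum of 0 CPM in every ST2- CD44hi library and of at most 8.82 CPM in the other libraries of these organs.

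The remaining macrophage members of the colon followed in different degrees. Spi1, the transcription factor PU.1 of myeloid and B cells, was at 57.5, 30.2 and 32.1 CPM in ST2+ libraries and at 47.2 CPM in ST2- mouse 2, but at 0 to 1.27 CPM in the other 4 ST2- libraries. Mpeg1, a pore-forming protein of phagocytes, was at 24.9, 39.1 and 38.4 CPM in ST2+ libraries and was counted among ST2- libraries in mouse 2 only, at 30.0 CPM. Tyrobp, a signalling adaptor of myeloid and NK cells, was at 90.6, 78.9 and 79.1 CPM in ST2+ and 0.568, 49.8, 11, 3.39 and 9.66 CPM in ST2- libraries. For these genes ST2- mouse 2 was the highest of its group. Fcer1g, the shared gamma chain of Fc receptors, was at 102.6, 85.5 and 77.4 CPM against at most 10.2 CPM, and Adgre1, which encodes the macrophage antigen F4/80, at 57.0, 33.2 and 28.7 CPM against at most 3.19 CPM. Cd68, a lysosomal glycoprotein, was at 51.6 to 100.7 CPM against 9.09 to 36.8 CPM, and Cd14, the endotoxin co-receptor, at 17.8 to 117.5 CPM against 0 to 12.1 CPM. Ctss, the lysosomal protease cathepsin S, was the exception, with 352.8, 357.6 and 421.8 CPM in ST2+ and 278.3 to 361.8 CPM in ST2- libraries, so that its groups overlapped.

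Summed over the 13 macrophage genes other than Ctss, the colon ST2+ libraries held 2352.4, 2197.0 and 2346.1 CPM, and the ST2- libraries 98.3, 505.6, 165.4, 80.0 and 94.8 CPM. In every other group the median of this sum was lower than in colon ST2+ Tregs, at 300.4 CPM in VAT ST2+, 232.9 in skin ST2+, 168.7 in VAT ST2-, 120.7 in skin ST2-, 116.8 in blood ST2+ and 51.0 CPM in blood ST2- Tregs, and between 10.5 and 28.1 CPM in the 6 groups of spleen and lungs. The 2 left-out colon ST2+ libraries were too shallow for a level.

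**Figure D2:**
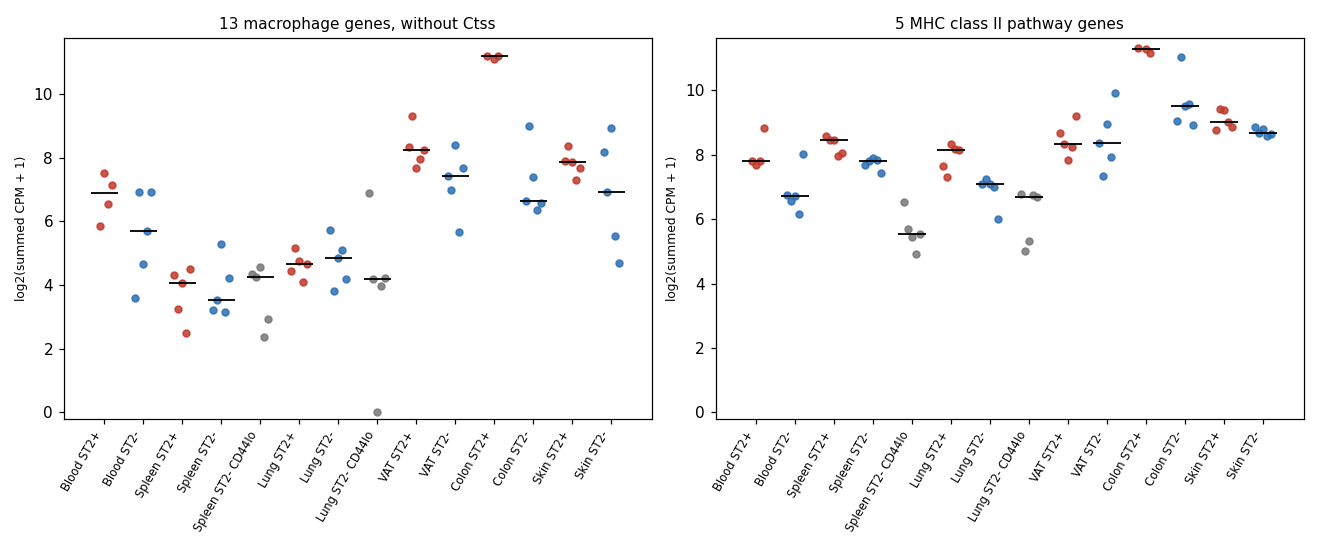
Summed CPM of the 13 macrophage genes without Ctss (left) and of the 5 class II genes (right), as log2(sum + 1), per library in each tissue for ST2+ CD44hi (red), ST2- CD44hi (blue) and ST2- CD44lo CD62L+ Tregs (grey), with the group median as a black line. The 3 colon ST2+ libraries stand at the top of both panels (2197.0 to 2352.4 and 2272.8 to 2552.8 CPM), and 1 colon ST2- library, mouse 2, approaches them for class II at 2109.9 CPM.

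Between ST2+ and ST2- Tregs of the colon none of the 31 members that could be tested was called by edgeR's quasi-likelihood test, a call being a 1.5-fold or larger difference whose p, adjusted after Benjamini and Hochberg, was 0.05 or less, and of all 13173 genes 0.0683% were called. At an unadjusted p under 0.05 there were 11 members, against 5.03% of all genes. Apoe was higher in ST2+ libraries by 3.44 on the log2 scale (SE 0.80, adjusted p = 0.077) and C1qb by 5.11 (SE 1.14, adjusted p = 0.077), the closest of the members to the threshold. Csf1r differed by 7.93 (SE 1.82, adjusted p = 0.172), C1qa by 6.15 (SE 1.66, adjusted p = 0.201) and Lyz2 by 3.23 (SE 1.19, adjusted p = 0.665). The median log2 difference was 3.79 over the 14 macrophage genes and 1.79 over the 5 class II genes, beside 0.0293 over all genes tested. In 14 of the 31 members every ST2+ library was above every ST2- library, and this held for 3.67% of all genes.

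The colon call depended on the model. With limma voom and library quality weights 16 members were called, all higher in ST2+ libraries, where 2.24% of all genes were called, and these were Adgre1, Apoe, C1qa, C1qb, C1qc, Cd14, Csf1r, Fcer1g, Lyz2, Mpeg1, Spi1, Cd74, H2-Aa, H2-Ab1, H2-Eb1 and Itgax. With the mouse as a block, Apoe passed (log2 3.78, adjusted p = 0.0198), and it also passed without the 4 libraries that stand apart (log2 3.97, adjusted p = 0.0249). The latter fit leaves out colon ST2- mouse 2, which was chosen for its high members and held the most Apoe of the ST2- libraries. Leaving it out widens the difference by construction, so that pass adds no evidence. The part that cells other than Tregs had in these levels was not tested.

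Macrophage genes outside the set gave the same picture in part. Among 17 further macrophage and monocyte genes, of which 14 were tested, 0 were called between ST2+ and ST2- Tregs of the colon and 7 had an unadjusted p under 0.05. Ms4a7 was at 119.9, 104.0 and 59.0 CPM in ST2+ libraries and at most 8.94 CPM in ST2- libraries. Lgmn, the lysosomal protease legumain, was at 297.7, 166.6 and 79.7 CPM in ST2+ libraries and reached 307.3 CPM in ST2- mouse 1, so its groups overlapped. Among these further genes Itgam, whose protein was gated out, stayed at or below 6.28 CPM.

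The class II genes had a second pattern, because 1 ST2- library of the colon carried them as well. H2-Ab1, the beta chain of the class II molecule I-A, was at 653.9, 707.0 and 596.0 CPM in colon ST2+ libraries and at 82.4, 602.0, 161.5, 216.8 and 70.1 CPM in ST2- libraries of mice 1 to 5. H2-Aa, its alpha chain, was at 552.8, 506.5 and 451.6 CPM and at 15.9, 433.5, 39.6, 129.6 and 19.3 CPM, and H2-Eb1, the beta chain of I-E, at 490.9, 466.7 and 403.4 CPM and at 40.3, 407.3, 44.8, 43.6 and 34.4 CPM. Mouse 2 reached the ST2+ range for H2-Ab1 and H2-Eb1 and came close to it for H2-Aa, and the other 4 ST2- libraries lay below. Ciita, the co-activator that switches class II genes on, was low in both populations, at 21.1, 13.3 and 5.16 CPM in ST2+ and 0, 8.30, 0.649, 0.847 and 9.06 CPM in ST2- libraries. Of the class II genes outside the set, H2-DMb1, part of the peptide loading complex, was at 93.0, 85.5 and 113.5 CPM in ST2+ libraries and at 82.4 CPM in ST2- mouse 2, against 0 to 14.4 CPM in the other 4.

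**Figure D3:**
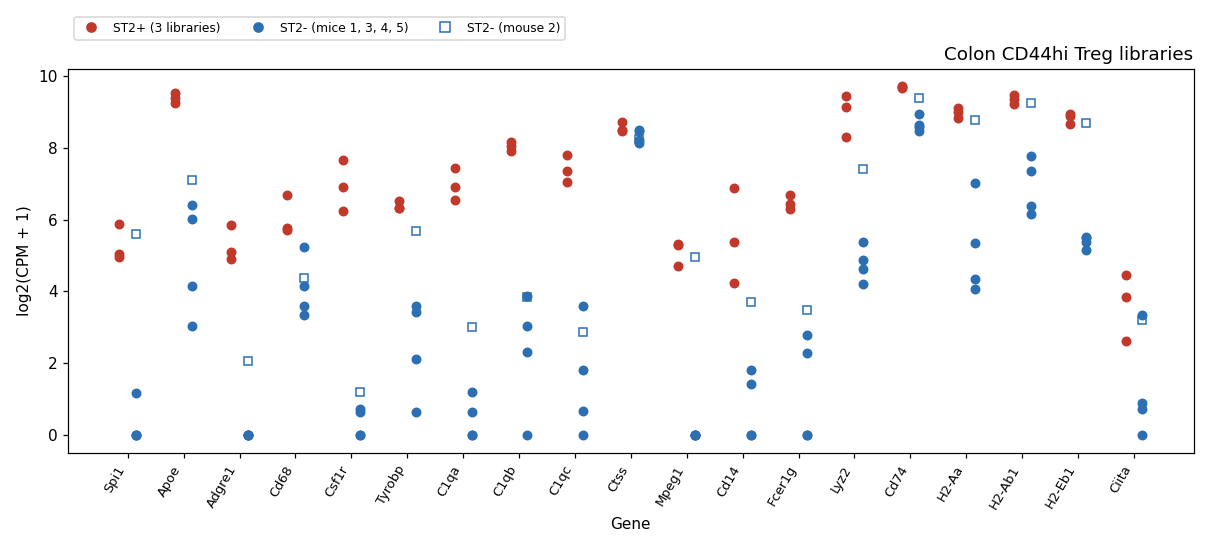
Level of the 14 macrophage and 5 class II genes in Tregs of the colon, as log2(CPM + 1), with ST2+ libraries in red (3 libraries), ST2- libraries of mice 1, 3, 4 and 5 in blue and ST2- mouse 2 as an open square. ST2- mouse 2 lies near the ST2+ libraries for H2-Aa, H2-Ab1 and H2-Eb1 (433.5, 602.0 and 407.3 CPM) and far below them for Csf1r (1.28 CPM) and the C1q genes.

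The ST2- library of mouse 2 thus held class II and part of the macrophage set. Its 5 class II genes summed to 2109.9 CPM, against 481.4 to 771.8 CPM in the other ST2- and 2272.8 to 2552.8 CPM in the ST2+ libraries, whereas its C1q genes summed to 26.8 CPM, against 463.7 to 679.3 CPM in the ST2+ libraries. It also had the highest sum over the 6 dendritic cell genes in the colon, at 108.5 CPM, where the ST2+ libraries held 38.3 to 89.4 CPM.

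H2-Aa and H2-Eb1 were high in the same colon libraries, and their promoters, which are shown because class II promoters share a known element, hold the same pair of short motifs. The 120 bases before each start are given 5′ to 3′ on the coding strand (RefSeq promoter sequences on GRCm38.p6, H2-Aa at chr17:34287824-34287943 on the minus strand and H2-Eb1 at chr17:34305747-34305866 on the plus strand), with the Y box CTGATTGG and the X box core GCAACT in capitals.
H2-Aa: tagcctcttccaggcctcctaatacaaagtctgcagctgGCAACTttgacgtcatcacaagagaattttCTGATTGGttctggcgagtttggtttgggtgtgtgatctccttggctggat
H2-Eb1: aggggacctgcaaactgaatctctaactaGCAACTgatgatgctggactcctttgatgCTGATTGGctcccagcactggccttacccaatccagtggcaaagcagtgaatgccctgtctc
The motifs are 24 bases apart in H2-Aa and 23 bases apart in H2-Eb1, and the Y box ends 44 bases before the start in H2-Aa and 55 bases in H2-Eb1. Searched on both strands of windows from 250 bases before to 50 after the start, CTGATTGG was in 4.1% of 32851 promoters and, among the 20 members with a promoter entry, in H2-Aa and H2-Eb1 only. GCAACT was in 10.9% of promoters and in those of Flt3 and Itgax as well as of these genes. CTGATTGG contains the CCAAT box on its other strand, and the letters are a description of these windows, not a test of binding.

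Cd74, the invariant chain that guides class II molecules, was the one class II gene counted in every library. In the colon it was at 834.2, 803.6 and 816.6 CPM in ST2+ libraries and at 393.1, 658.8, 485.8, 381.0 and 348.5 CPM in ST2- libraries (log2 difference 0.85, SE 0.31, edgeR adjusted p = 0.636). In blood its ST2+ libraries of mice 2 to 5 were at 180.9, 188.9, 151.6 and 327.6 CPM and its ST2- libraries of mice 1 to 5 at 86.4, 93.2, 68.2, 57.1 and 176.7 CPM. The ranges overlapped, since ST2- mouse 5 exceeded ST2+ mouse 4, and the log2 difference was 1.14 (SE 0.30, adjusted p = 0.0135). Without mouse 3 or mouse 4 that call was lost (adjusted p = 0.0735 and 0.0623). In every other tissue but VAT, each ST2+ library was above each ST2- CD44hi library without passing the test. In spleen Cd74 was at 309.6, 296.1, 320.4, 230.8 and 236.0 CPM in ST2+ and at 197.4, 204.2, 213.0, 208.0 and 156.4 CPM in ST2- CD44hi Tregs (log2 difference 0.51, SE 0.27, adjusted p = 1). In lungs the values were 162.3, 144.2, 195.4, 196.6 and 207.1 CPM against 121.6, 137.0, 85, 92.4 and 58.1 CPM (log2 difference 0.88, SE 0.28, adjusted p = 0.143), and limma voom called it (log2 1.01, adjusted p = 0.00988). In skin they were 409.3, 519.1, 494.9, 451.4 and 423.2 CPM against 345.7, 315.4, 333.5, 356.5 and 384.6 CPM (log2 difference 0.40, SE 0.27, adjusted p = 0.789). Such separation, with ST2+ libraries above, was seen in 1.31%, 2.04% and 0.827% of all genes in spleen, lungs and skin.

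CD44hi Tregs of the spleen also held more Cd74 than the resting CD44lo CD62L+ Tregs. The CD44lo CD62L+ libraries were at 77.3, 48.0, 39.9, 28.9 and 32.2 CPM, all below the ST2- CD44hi libraries above (log2 difference 2.10, SE 0.29, edgeR adjusted p = 2.23e-07). It was the 1 member called there, of 31, against 5.04% of all genes, and 6.28% of all genes were separated in this way. Cd79b, a signalling chain of the B cell receptor, was at 72.9, 82.0, 73.0, 102.4 and 86.1 CPM in CD44hi and at 38.1, 40.1, 35.2, 39.8 and 25.6 CPM in CD44lo CD62L+ libraries, again without overlap (log2 difference 1.22, SE 0.50, adjusted p = 0.171), and limma voom called it (log2 1.24, adjusted p = 0.00149), together with H2-Eb1 (log2 3.90, adjusted p = 0.00233). In lungs the ranges of Cd74 overlapped, at 58.1 to 137.0 CPM in ST2- CD44hi and 29.5 to 89.3 CPM in CD44lo CD62L+ Tregs (log2 difference 0.72, SE 0.29, adjusted p = 0.143). Cd79b was higher in CD44hi Tregs of the lungs with limma voom (log2 3.39, adjusted p = 0.00748) and was not called by edgeR. The 1 member called by edgeR in lungs, against 5.52% of all genes, was Fcer1g, which had no count in the 5 CD44lo CD62L+ libraries and was at 5.82, 0, 6.60, 3.65 and 1.32 CPM in the ST2- CD44hi libraries (at least 13.1-fold higher, adjusted p = 0.0449). The call was lost without any one of the mice (adjusted p 0.0804 to 0.196). Igkc, higher in CD44hi Tregs by 2.16 on the log2 scale in spleen and 2.31 in lungs in the fit with all gene types, did not pass (adjusted p = 0.136 and 0.123), but it did without the 4 libraries that stand apart (adjusted p = 0.0308 and 0.0271).

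The members were also compared between tissues. CD44hi Tregs of each tissue, ST2+ and ST2- together, were compared with those of the spleen, whose libraries all of these comparisons share. In the colon 23 of 31 members were higher and 0 were lower, where 19.4% of all genes were called (14.7% higher and 4.69% lower). In VAT 20 members were called, 19 higher and 1 lower, against 15.9% of all genes (8.79% higher and 7.07% lower), and in skin 13, 12 higher and 1 lower, against 41.1% of all genes (20.9% and 20.2%). In blood 5 members and in lungs 4 were called, against 7.8% (2.98% higher and 4.82% lower) and 10.2% (6.18% and 3.99%) of all genes. Adgre1, Csf1r, Ms4a1, Itgax, C1qa, C1qb, Flt3, Clec9a and Cd209a had no count in the spleen CD44hi libraries, so they could only come out higher. These members passed the filter at 1 CPM through other groups, so the direction of the counts above was partly fixed beforehand. The median log2 difference of the members from spleen was 5.49 in the colon, 3.69 in VAT and 1.87 in skin, and 0 in blood and lungs, whereas that of all genes lay between -0.07 and 0.0329 in these tissues.

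In the colon all macrophage members but Ctss rose against the spleen, 13 of 14, by a median of 6.80 on the log2 scale. Apoe ranged from 7.20 to 738.7 CPM in the 8 colon libraries with a median of 110.8, and from 0 to 12.1 CPM in the 10 spleen libraries with a median of 4.36 (log2 difference 5.45, SE 0.63, edgeR adjusted p = 3.44e-10). Lyz2 ranged from 17.6 to 691.7 CPM in the colon and from 0 to 14.8 CPM in the spleen, without overlap (log2 difference 5.89, SE 0.96, adjusted p = 2.87e-06), which held for 6 members and for 3.74% of all genes. C1qb, C1qa, Csf1r and Adgre1 had no count in the 10 spleen libraries, and against a floor of 3 counts over these libraries they were at least 852.4-fold, 404.9-fold, 407.1-fold and 125.8-fold higher. Most of these levels came from the 3 ST2+ libraries, and without the highest of them, ST2+ mouse 1, C1qa was 259.5, Csf1r 228.7 and Adgre1 76.6 times the floor. DESeq2 called neither Csf1r (adjusted p = 0.426) nor Adgre1 (adjusted p = 0.405), and edgeR did not call Adgre1 without mouse 2 (adjusted p = 1). H2-Ab1 (log2 5.99, SE 0.73, adjusted p = 1.73e-09), H2-Eb1 (log2 4.40, SE 0.61, adjusted p = 7.93e-08) and Cd74 (log2 1.38, SE 0.21, adjusted p = 4.4e-07) rose as well, and their colon and spleen libraries did not overlap. Without the 4 libraries that stand apart these were still called (log2 5.60, 3.66 and 1.29), and 16 members were called in all. DESeq2 also called 16, but a different set, with Cpa3, at most 1.27 CPM in the colon, as lower (log2 -9.96, adjusted p = 1.1e-08). The shares of all genes called in these alternative fits are not given here, so neither count can be set against them. Among the edgeR calls lost without the 4 libraries were Adgre1 (log2 4.69, adjusted p = 1), Mpeg1 (log2 3.92, adjusted p = 1), Cd14 (log2 3.12, adjusted p = 0.0933) and Clec9a (log2 3.88, adjusted p = 0.059). Of the further macrophage genes, 11 of 14 tested rose in the colon, for example Lgmn (log2 3.97, SE 0.44, adjusted p = 9.44e-11).

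B cell lineage transcripts, Jchain and Igkc among them, were present in all colon libraries of both populations. Jchain was at 1069.6, 148.2 and 1375.9 CPM in ST2+ libraries of mice 1, 3 and 4 and at 991.2, 1179.8, 1438.7, 958.1 and 1184.4 CPM in ST2- libraries. ST2+ mouse 3 was the low one, and the others of both populations lay between 958.1 and 1438.7 CPM. In the spleen Jchain ranged from 0.390 to 10.8 CPM with a median of 3.36, so that no colon library overlapped the spleen (log2 difference 7.97, SE 0.91, edgeR adjusted p = 2.78e-10). Igkc, the constant region of the kappa light chain, was at 484.2, 253.6 and 582.8 CPM in ST2+ and at 560.6, 595.6, 650.6, 422.9 and 538.8 CPM in ST2- libraries, higher than in spleen by 3.90 on the log2 scale (SE 0.56, adjusted p = 1.96e-07, in the fit with all gene types) and without overlap. Cd79a, the other signalling chain of the B cell receptor, was at 137.1, 0.737 and 159.9 CPM in ST2+ and at 52.3 to 105.1 CPM in ST2- libraries (colon against spleen log2 4.42, SE 0.83, adjusted p = 4.02e-05). Here too ST2+ mouse 3 held the least.

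Ighm, the heavy chain constant region of IgM, went the other way. It was at 423.8, 316.3 and 436.1 CPM in colon ST2+ and at 413.5, 395.8, 376.2, 551.7 and 451.8 CPM in colon ST2- libraries, and was lower than in spleen without overlap (log2 difference -0.94, SE 0.21, edgeR adjusted p = 0.000764, all gene types). Igha, the constant region of IgA, was looked at after these values were seen and is not one of the 34 genes. In the colon it was at 1114.6, 318.5 and 1375.9 CPM in ST2+ and at 1196.8, 1431.3, 1476.9, 998.3 and 1311.8 CPM in ST2- libraries, next to Jchain in level and with the same low library. The plasma cell genes Mzb1, Sdc1 and Tnfrsf17, from the list of further B and plasma cell genes, rose in the colon against spleen with 5 of 8 tested in that list, and 1 fell. Mzb1 was at 162.5, 3.69 and 280.8 CPM in ST2+ and 77.8 to 190.1 CPM in ST2- libraries (log2 difference from spleen 10.20, SE 1.51, adjusted p = 2.36e-06).

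**Figure D4:**
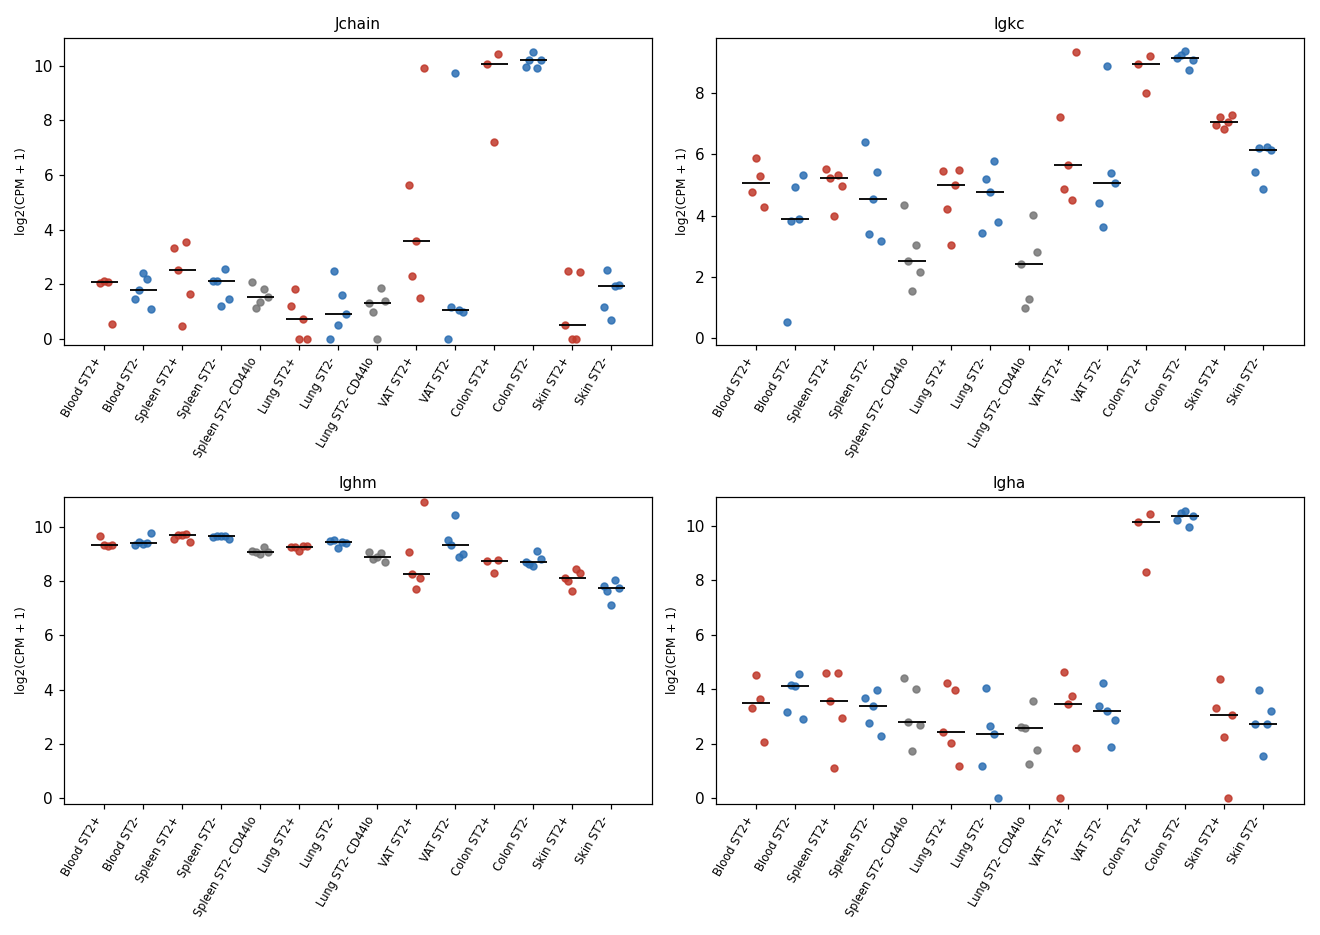
Level of Jchain, Igkc, Ighm and Igha per library, as log2(CPM + 1), by tissue and population (ST2+ CD44hi red, ST2- CD44hi blue, ST2- CD44lo CD62L+ grey). Colon libraries are high for Jchain (148.2 to 1438.7 CPM), Igkc and Igha, whereas the 2 VAT libraries that are high for Jchain (965.8 and 854.6 CPM) and Igkc are high for Ighm and not for Igha.

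VAT held a related signal in 1 ST2+ and 1 ST2- library. Jchain was at 48.2, 4.01, 11, 1.84 and 965.8 CPM in ST2+ libraries of mice 1 to 5 and at 0, 1.27, 854.6, 1.07 and 0.984 CPM in ST2- libraries. ST2+ mouse 5 and ST2- mouse 3 stood apart by this measure, and they did so for Igkc (639.2 and 462.7 CPM, the other VAT libraries 11.5 to 146.7 CPM) and Ighm (1923.8 and 1384.6 CPM, the others 211.0 to 739.1 CPM). Ms4a1, which encodes the B cell antigen CD20, was at 26.2 and 10.7 CPM and Cd79a at 38.3 and 34.4 CPM in these libraries. Per kilobase of exon Jchain was 0.32 and 0.39 times Igkc there, and 0.37 to 0.50 times in 7 colon libraries, with 0.12 in colon ST2+ mouse 3. Igha per kilobase was 1.28 to 2.78 times Ighm in those 7 colon libraries and 0.712 times in colon ST2+ mouse 3, but 0.000939 times in VAT ST2+ mouse 5 and 0.0042 times in VAT ST2- mouse 3. Jchain was called in VAT against spleen (log2 difference 5.55, SE 0.85, edgeR adjusted p = 6.15e-07), and without the 4 libraries that stand apart it was not (log2 -0.13, adjusted p = 0.946), nor was it with limma voom (log2 1.51, adjusted p = 0.486) or without mouse 3 (log2 1.62, adjusted p = 0.416). Between ST2+ and ST2- Tregs of VAT Jchain was not called, but it was higher in ST2+ libraries without mouse 3 (log2 8.37, adjusted p = 6.18e-06) and without the 4 libraries that stand apart (log2 4.41, adjusted p = 0.00159), and lower without mouse 5 (log2 -3.67, adjusted p = 0.0377).

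Macrophage transcripts in VAT were lower than in the colon ST2+ libraries and were present in both populations. Apoe was at 104.6, 116.3, 40.0, 55.6 and 73.5 CPM in ST2+ and at 32.6, 7.63, 131.8, 30.4 and 27.1 CPM in ST2- libraries. Lyz2 was at 84.3, 84.3, 64.8, 57.0 and 93.3 CPM in ST2+ and at 58.6, 0, 39.2, 4.26 and 24.6 CPM in ST2- libraries. Tyrobp was at 13, 106.6, 13.3, 69.8 and 20.5 CPM and at 5.26, 66.8, 82.8, 0.533 and 58 CPM. The populations overlapped for Apoe, Lyz2 and Tyrobp. Against spleen 10 of 14 macrophage members rose in VAT, among them Apoe (log2 3.69, SE 0.59, edgeR adjusted p = 1.57e-06), Tyrobp (log2 7.28, SE 1.36, adjusted p = 5.3e-05) and C1qb (at least 127.0-fold higher). Of the class II genes H2-Ab1 rose by 3.64 on the log2 scale (SE 0.67, adjusted p = 2.57e-05), with H2-Aa and H2-Eb1, and in ST2- mouse 5 it reached 281.3 CPM where the other VAT libraries were at 21.3 to 94.6 CPM.

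Of the 2 members called between ST2+ and ST2- Tregs of VAT, where 3.1% of all genes were called (1.26% higher and 1.84% lower), 1 was higher and 1 lower in ST2+ libraries. Ctss was at 131.7, 189.1, 30.8, 46.9 and 69.0 CPM in ST2+ and at 267.6, 246.2, 242.7, 142.9 and 137.7 CPM in ST2- libraries (log2 difference -1.15, SE 0.21, edgeR adjusted p = 0.000266). It was the 1 macrophage gene that fell in VAT against spleen (log2 -1.35, SE 0.15, adjusted p = 1.12e-10), without overlap, as did 0.865% of all genes. Csf1r was at 4.86, 52.7, 32.6, 0 and 0 CPM in ST2+ and had no count in the 5 ST2- libraries (at least 62.5-fold higher, adjusted p = 0.0179). With the mouse as a block the Csf1r call was lost (adjusted p = 0.0505), as it was without mouse 1, 2 or 3 (adjusted p 0.0549 to 0.107). DESeq2 did not call Csf1r either (adjusted p = 0.682). VAT ST2+ mouse 2 had the most dendritic cell RNA of any library, with Cd209a, a lectin of monocyte-derived dendritic cells, at 184.0 CPM and the growth factor receptor Flt3 at 66.5 CPM. Its sum over the 6 dendritic cell genes was 327.8 CPM, against 0.636 to 71.2 CPM in the other 9 VAT libraries. Against spleen Cd209a, Flt3 and Clec9a were at least 180.2-fold, 67.6-fold and 20.5-fold higher in VAT. They were counted in 4, 4 and 3 of the 10 VAT libraries, and without ST2+ mouse 2 their means were 31.7, 14.2 and 11.3 times the floor. Cd209a was not called without the 4 libraries that stand apart or without mouse 3 (adjusted p = 1 in both), nor by DESeq2 (adjusted p = 0.33), and Clec9a was not called without mouse 5 (adjusted p = 1). Xcr1 in VAT was not called without the 4 libraries either (log2 1.87, adjusted p = 0.106). The fit without the 4 libraries keeps VAT ST2+ mouse 2.

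In skin 4 of 6 dendritic cell genes rose against spleen, with 6 of 14 macrophage genes, and Cd79b fell. Zbtb46, a transcription factor of classical dendritic cells, was at 89.1, 164.2, 101.0, 93.5 and 118.1 CPM in skin ST2+ and at 85.5, 74.8, 51.7, 52.4 and 154.2 CPM in skin ST2- libraries, against 7.38 to 32.2 CPM in spleen (log2 difference 2.25, SE 0.63, edgeR adjusted p = 0.00221). Xcr1, a chemokine receptor of cross-presenting dendritic cells, was at 140.3, 92.0, 53.3, 38.4 and 88.7 CPM and at 61.1, 45.2, 55.5, 43.3 and 34.6 CPM, against 0 to 24.2 CPM in spleen (log2 3.46, SE 0.80, adjusted p = 0.000279). Neither gene's skin libraries overlapped the spleen, which with Apoe made 3 members, against 8.05% of all genes, and both were present in every skin library of both populations. The other dendritic cell genes had a median of 0 CPM in skin. Itgax, Flt3 and Cd209a were each counted in 3 of the 10 skin libraries and Clec9a in 1. The calls of Cd209a, Itgax and 4 macrophage genes in skin depended on the mice or the model. Without 1 of several mice Adgre1, Tyrobp, Lyz2 and Cd209a were not called, for example Lyz2 without mouse 3 (log2 0.79, adjusted p = 0.822), and C1qb was not called without mouse 2 (adjusted p = 1). DESeq2 did not call Adgre1 (adjusted p = 0.645), Itgax (adjusted p = 0.591) or Cd209a (adjusted p = 0.577). Flt3 was not called by edgeR, but it was with the mouse as a block (log2 1.95, adjusted p = 0.0472) and with limma voom (log2 1.32, adjusted p = 0.0345). Without the 4 libraries that stand apart Flt3 was called as well (adjusted p = 0.0451), and so were, as lower in skin, Cpa3 (log2 -3.61, adjusted p = 0.0076), Cd79a (log2 -1.72, adjusted p = 0.0467) and Ciita (log2 -3.22, adjusted p = 0.0229). For Cpa3 the direction was fixed by leaving out the 1 skin library with a count. In spleen it was counted in 5 of 10 libraries, at no more than 4.56 CPM. Cd79b was at 20, 27.1, 8.67, 20.9 and 14.7 CPM in skin ST2+ and at 3.85, 4.72, 0, 2.80 and 4.69 CPM in skin ST2- libraries, against 61.9 to 142.2 CPM in spleen (log2 -3.51, SE 0.41, adjusted p = 9.28e-11), a separation downward that 6.4% of all genes showed. Each skin ST2+ library lay above each ST2- library for Cd79b, without passing the test (log2 2.47, SE 0.62, adjusted p = 0.0582). Ighm fell in skin against spleen too (log2 -1.72, SE 0.20, adjusted p = 1.2e-10, all gene types).

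**Figure D5:**
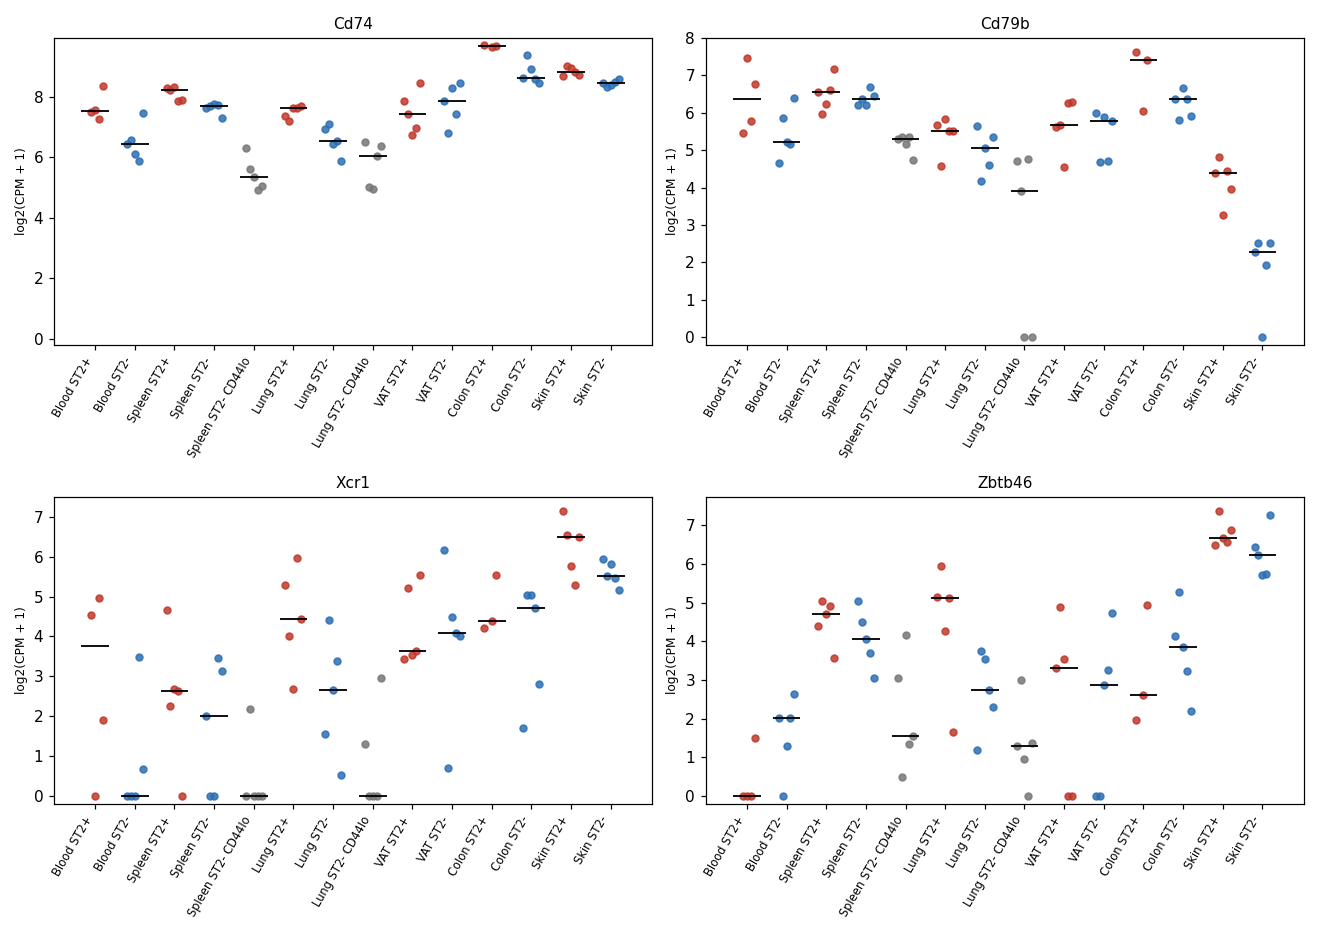
Level of Cd74, Cd79b, Xcr1 and Zbtb46 per library, as log2(CPM + 1), by tissue and population (ST2+ CD44hi red, ST2- CD44hi blue, ST2- CD44lo CD62L+ grey). Xcr1 and Zbtb46 are highest in skin (34.6 to 140.3 and 51.7 to 164.2 CPM), where Cd79b has its lowest median among the CD44hi Tregs (6.69 CPM). Cd74 is lowest in spleen CD44lo CD62L+ Tregs (28.9 to 77.3 CPM) and in some libraries of that population in lungs.

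Apoe in skin was at 21.7, 320.5, 154.8, 91 and 184.2 CPM in ST2+ and at 245.7, 107.2, 364.8, 25.9 and 17.6 CPM in ST2- libraries, all above the highest spleen library (log2 5.05, SE 0.61, edgeR adjusted p = 2.74e-10). The C1q genes did not accompany it at that level, and their sum was 0.662 to 15 CPM in skin ST2+ and 0 to 2.02 CPM in skin ST2- libraries. Among the class II genes of skin Cd74 rose by 0.77 (SE 0.19, adjusted p = 0.000766) and H2-Ab1 by 3.09 on the log2 scale, while 6 of the 8 further class II genes fell against spleen. H2-DMa, a chain of the peptide loading complex, fell by 3.77 (SE 0.33, adjusted p = 4.56e-15) and H2-Ob, a chain of its inhibitor, by more (log2 -4.04, SE 0.40, adjusted p = 6.56e-13).

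Blood held a few myeloid transcripts and lungs fewer. Lyz2 was at 49.0, 130.3, 74.2 and 115.2 CPM in blood ST2+ libraries of mice 2 to 5 and at 0, 86.3, 8.77, 39.8 and 57.9 CPM in blood ST2- libraries, higher than in spleen (log2 4.38, SE 0.91, edgeR adjusted p = 0.000486). Fcer1g was at 3.19, 49.7, 17.0 and 17.6 CPM and at 0, 5, 3.90, 7.14 and 12.3 CPM (log2 6.93, SE 1.25, adjusted p = 7.03e-05). Cd68, Cd74 and Zbtb46 were lower in blood than in spleen, Zbtb46 without overlap (log2 -4.12, SE 0.80, adjusted p = 0.000179, 0.569% of all genes), while the calls of Cd74 and Cd68 were each lost without 1 of several mice. Between ST2+ and ST2- Tregs of blood, where 4.01% of all genes were called (2.21% higher and 1.8% lower), the 2 members called were Cd74, higher, and Tyrobp, lower. Tyrobp had no count in the 4 ST2+ libraries and was at 0, 28.1, 1.46, 0 and 40.4 CPM in the ST2- libraries (at least 40.2-fold lower, adjusted p = 0.0491), a call carried by mice 2 and 5 and lost with the mouse as a block (adjusted p = 0.0539) and without mouse 2, 3, 4 or 5 (adjusted p 0.117 to 0.192). In lungs Fcer1g (log2 3.80, SE 1.33, edgeR adjusted p = 0.0441) and Clec9a (at least 6.53-fold higher, adjusted p = 0.0466) were higher than in spleen, both calls being lost without 1 of several mice. Clec9a was counted in 2 of the 10 lung libraries, at 6.28 CPM in ST2+ mouse 3 and 1.65 CPM in the next. Without that highest library its mean was 1.51 times the floor. Cd74 (log2 -0.81, SE 0.20, adjusted p = 0.00246) and Cd79b (log2 -1.23, SE 0.35, adjusted p = 0.0112) were lower than in spleen. Cd79b was lower without overlap, as were 0.957% of all genes, but its call was lost without mouse 2 or mouse 4 (adjusted p = 0.0623 and 0.0893). In spleen and lungs 0 members were called between ST2+ and ST2- Tregs by edgeR, where 0.319% and 0.827% of all genes were called, with 3 and 6 members at an unadjusted p under 0.05 and 5.19% and 10% of all genes.

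Cpa3, the carboxypeptidase of mast cell granules, was high in 1 library. Skin ST2+ mouse 4 held 256.2 CPM and the other 9 skin libraries 0, which made it the 1 member called between ST2+ and ST2- Tregs of skin (at least 145.6-fold higher, edgeR adjusted p = 0.0418, 0.22% of all genes called), and without that library it was not called. The same library held the mast cell proteases Mcpt4 at 211.9 CPM and Cma1 at 108.5 CPM and the histamine-forming enzyme Hdc at 324.6 CPM. Hdc was not particular to this library, since it was counted in 56 libraries and was called higher than in spleen in VAT, colon and skin. Of the CD8 T cell genes, Cd8a was counted in skin ST2- mouse 3, at 34.4 CPM, and in 1 spleen CD44lo CD62L+ library, at 8.15 CPM, and was too rare to test. Cd8b1, its partner chain, was at 3.89 to 98.5 CPM in all 67 libraries, so the pair did not move together in libraries sorted as CD8-.

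Whether the ST2 difference of a member varied between the 6 tissues was tested with an interaction term. It passed for Tyrobp (edgeR adjusted p = 0.0342) and Ctss (adjusted p = 0.0438), 2 of 31 members against 1.46% of all genes, and not for Cd74 (adjusted p = 0.227). Leaving out any mouse removed the Tyrobp call (adjusted p 0.064 to 0.31), leaving out any mouse but mouse 2 removed that of Ctss (adjusted p 0.152 to 0.509), and without the 4 libraries that stand apart Ctss did not pass (adjusted p = 0.222). With limma voom 13 members passed, among them Csf1r (adjusted p = 8.21e-10) and Cd74 (adjusted p = 0.00032). The share of all genes that passed with limma voom is not given here, so that count cannot be set against it.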

How the data were processed

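Tregs were sorted from 6 tissues, cDNA was made with the SMART-Seq v4 kit and libraries with NexteraXT, and single reads of 58 bases were sequenced. Per the study's methods and the labels, the authors aligned reads with STAR to GRCm38 and counted them per Ensembl gene with HTSeq 0.4.1 (base calling with CASAVA 1.8.2), and the deposited values are raw counts per gene with no normalization. For counting mode and strand the sources used here give nothing, so reads of overlapping or antisense genes cannot be told apart, and reads shared by Lyz2 and its close copy Lyz1 make Lyz2 uncertain.

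Symbols were matched to the 53465 Ensembl identifiers, of which 53274 were in the GRCm38 annotation and 21865 protein coding. Libraries under 1000000 counts were left out (3 of 70). Tested were protein-coding genes that reached 1 CPM in 10% of the 67 libraries (13173 genes, 31 of the 34 members, not Cd8a, Igkc and Ighm). Igkc and Ighm were tested in the fit with all gene types (17573 genes). edgeR 4.0.16 in R 4.3.3 was used with TMM factors and a robust quasi-likelihood fit of 14 group means. A call needed a 1.5-fold difference and an adjusted p (Benjamini-Hochberg) of 0.05 or less. CPM are counts per 1000000 of the TMM-scaled library size, and those per kilobase are divided by the summed exon length. A fold against a group with no counts uses a floor of 3 counts over the group. The interaction was an F test over the 6 tissues. The fits were tested on simulated data. Alternatives were limma 3.58.1 voom with quality weights, DESeq2 1.42.0, the mouse as a block, median-of-ratios factors, no filter, all gene types, all 70 libraries, each mouse left out and, chosen after seeing the data, the 4 libraries that stand apart left out.

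The same mouse gave 1 library to each group, so libraries are paired by design. Over 9207 genes, deviations from the group means of the ST2+ and ST2- libraries of 1 mouse had a mean correlation of 0.0836 (27 pairs, lowest 0.00624, 8 above 0.1) and those of different mice -0.0201. No 2 replicates were identical, and the closest of 129 pairs differed beyond sampling noise. The fit reported here has no term for the mouse, which enters in an alternative. All 34 members are reported. Some sort antigens and list genes are not reported here. The other sort antigens are named, and of each further list the genes named are among the 4 with the highest CPM in any library. Igha and the other heavy chain genes were added after values were seen. The members and lists were chosen with earlier results of these data known. Intervals and floors cover counting error only. Promoter sequences are from RefSeq, where 20 members had an entry.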

Additional observations from a re-analysis of the deposited data

Results flagged for a closer look

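In 164 groups of 4 or 5 libraries, 34 had 1 library far from the others of its group by Dixon's test, for levels of at least 50 CPM, where about 1 in 20 would do so by chance. The values, in CPM, are for single libraries. In the colon, ST2- mouse 2 stood out for the summed macrophage genes (804.4), the summed class II genes (2109.9), Lyz2 (167.9), H2-Aa (433.5), H2-Ab1 (602.0) and H2-Eb1 (407.3). In VAT, ST2+ mouse 5 stood out for the summed B cell genes (3670.0), Igkc (639.2), Ighm (1923.8) and Jchain (965.8), and ST2- mouse 3 for the summed B cell genes (2805.0), Igkc (462.7), Jchain (854.6) and Apoe (131.8). VAT ST2+ mouse 2 stood out for the summed dendritic cell genes (327.8), Cd209a (184.0), Cd68 (68.2) and Flt3 (66.5), and VAT ST2- mouse 5 for H2-Ab1 (281.3) and H2-Aa (173.1).

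In skin, Cpa3 stood out in ST2+ mouse 4 (256.2), Tyrobp in ST2+ mouse 1 (95.9), H2-Aa in ST2+ mouse 3 (53.3) and Lyz2 in ST2- mouse 3 (111.6). In blood, ST2+ mouse 2 stood out for Ctss (387.4) and Ighm (808.9), ST2+ mouse 5 for the summed class II genes (453.7), and ST2- mouse 5 for the summed class II genes (257.5) and Ighm (875.3). In lungs, ST2- CD44lo CD62L+ mouse 1 was high for Lyz2 (107.0), ST2- CD44hi mouse 5 low for the summed class II genes (63.8) and ST2+ mouse 3 low for Ighm (557.6). In spleen, ST2- CD44hi mouse 1 was low for the summed macrophage genes (328.7) and ST2- CD44hi mouse 5 low for Cd74 (156.4). What set these libraries apart was not tested.

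The interaction of tissue and ST2 passed for Tyrobp (edgeR adjusted p = 0.0342) and Ctss (edgeR adjusted p = 0.0438), but neither call held when mouse 1, 3, 4 or 5 was left out. The 3 libraries left out for low depth held counts of members above the limit that a count of 0 allows. Blood ST2+ mouse 1 held 499 counts of Ighm, 332 of Ctss, 89 of Cd74, 54 of Cd8b1, 18 of Igkc, 12 of Mpeg1 and 4 of Jchain. Colon ST2+ mouse 5 held 25 counts of Cd74, 22 of Igkc, 19 of Ighm, 18 of Apoe, 17 of Ctss, 11 of Jchain, 8 of Lyz2 and 8 of H2-Ab1, and colon ST2+ mouse 2 held 8 counts of Igkc and 6 of Jchain.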

How the results depend on the processing

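Of 72 calls of a member in a comparison, 39 held under all 13 alternatives, and 1 turned in direction, Jchain in VAT against spleen (log2 -0.13 without the 4 libraries that stand apart). The counts of members called in VAT, colon and skin against spleen stayed within 1.5 times. The other counts were small and moved. Except for voom between ST2+ and ST2- Tregs of the colon, the share of all genes called under an alternative is not given here. ST2+ against ST2- in blood gave 2 members, 1 with voom, the replicate block, no filter, all gene types or without the 4 libraries, and 0 to 2 without a mouse. In lungs it gave 0, and 1 with voom. In VAT it gave 2, 1 with DESeq2 or the block, and 1 to 3 without a mouse. In colon it gave 0, 16 with voom, 1 each with DESeq2 (Cpa3, lower), the block (Apoe) and without the 4 libraries (Apoe), and 0 without any mouse. In skin it gave 1, 2 with DESeq2, 0 with voom, the block, all 70 libraries, without the 4 libraries and without any mouse. CD44hi against CD44lo CD62L+ in spleen gave 1, 3 with voom, 2 with DESeq2, and 1 to 2 without a mouse, and in lungs 1, 0 with no filter, all gene types, all 70 libraries or without the 4 libraries, and 0 to 1 without a mouse. Blood against spleen gave 5, and 3 to 4 without a mouse. Lungs against spleen gave 4, 7 with voom, 2 with no filter, all gene types or all 70 libraries, and 1 to 5 without a mouse. The interaction gave 2, 13 with voom, 1 with all gene types, all 70 libraries or without the 4 libraries, 0 to 1 without a mouse, and was not run in DESeq2. The mean summed macrophage genes of colon ST2+ Tregs were 2675.9 CPM and 1815.3 CPM with all 70 libraries, and the class II genes 2440.9 and 1676.6 CPM, the added libraries holding few counts. The block also lost Tyrobp in blood (edgeR adjusted p = 0.0539), Csf1r in VAT (0.0505), Cpa3 in skin (0.0959), Clec9a and Fcer1g in lungs against spleen (0.0891 and 0.054) and Cd14 in colon against spleen (0.0923). Against spleen it gained Ciita, lower in lungs, VAT and skin (0.0436, 0.0387 and 0.0287), and, higher, Mpeg1 and Lyz2 in lungs (0.0234 and 0.0477), Xcr1 in colon (0.0455) and Flt3 in skin (0.0472). Except where stated, the cause of a change was not tested. With 3 colon ST2+ libraries, differences there were estimated with wide errors.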

Other observations

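Genes of further cell types appeared in a few libraries or, for Kit, in every library of some groups, and these values enter no comparison above. Kit was called higher than in spleen in lungs, colon and skin. The neutrophil genes S100a8 and S100a9 were at 132.6 and 165.7 CPM in blood ST2- mouse 2, and the 6 neutrophil genes summed to at most 22.5 CPM in every other library. The NK cell gene Ncr1 was at 79.0 CPM in VAT ST2+ mouse 4 and 33.7 CPM in VAT ST2- mouse 2, and at 32.8 CPM in skin ST2+ mice 1 and 3. Kit, the stem cell factor receptor of mast cells, was counted in each of the 5 lung ST2+ libraries at 8.69 to 27.8 CPM, and in 2 lung ST2- CD44hi libraries at up to 5.87 CPM, while Cpa3 was not called in lungs. In skin Kit was at 25.4 to 123.1 CPM in ST2+ and 22.6 to 89.6 CPM in ST2- libraries, in all 10 libraries, of which 1 held Cpa3, and in the colon it was at 40.1 to 98.8 CPM in ST2+ and 6.35 to 42.2 CPM in ST2- libraries.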
